A study of Mus musculus with 8 samples.

Results

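The 8 genes described here let a liver cell sense, take up and break down glucose and fructose, and they were measured in mice lacking AIM (apoptosis inhibitor of macrophage, the macrophage protein encoded by Cd5l). They are Mlxipl, Gckr, Pklr, Khk, Slc2a2, Pfkfb1, G6pdx and Pgd, taken by gene name from the array's non-control probes, and they are 8 of 27745 genes with a probe. All 12 of their probes were well above background on each of the 8 arrays and none was saturated, so every member was among the 15338 genes tested. Livers came from AIM-/- mice fed a high-fat diet for 6, 12 or 20 weeks or normal chow (0 weeks), and from AIM+/+ mice, which are wild type, at the same 4 times. All were of C57Bl/6 background, and 1 array of total RNA was hybridised for each genotype and time. The labels used here give no age or sex and do not describe how AIM was inactivated.

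A hepatocyte takes up glucose through the transporter GLUT2 (Slc2a2) and traps it as a phosphate, a step that the regulatory protein Gckr restrains when glucose is low. Fructose is instead phosphorylated by ketohexokinase (Khk). Sugar phosphates activate ChREBP (Mlxipl), a transcription factor that binds carbohydrate response elements with its partner Mlx and induces genes of glycolysis, fructose metabolism and fat synthesis. Liver pyruvate kinase (Pklr), which makes pyruvate at the end of glycolysis, is its textbook target.

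The sequence through which ChREBP is known to act was looked for in the RefSeq promoter windows of the members (GRCm38.p6, 250 bases before to 50 after each start), in which all 8 were matched through 14 windows. The search was for the E box CACGTG, and for a pair of E-box-like elements, CACGNG and CNCGTG, separated by 5 bases. Both motifs read the same on either strand. The pair was found in 1 window, of Pklr, and in 0.0457% of all windows (15 of 32851). An E box was found in 2 windows, of Mlxipl and Khk, and in 7.15% of all windows. The 3 stretches are shown because they hold these matches, which stand in capitals. The Pklr stretch is chr3:89136373-89136622 on the plus strand, with the pair starting at base -170. The Mlxipl stretch, chr5:135089762-135089827 (plus strand), belongs to the more upstream of that gene's start sites and has its E box at base -98. The Khk stretch is chr5:30921458-30921523 (plus strand), with the E box at base -71.
Pklr: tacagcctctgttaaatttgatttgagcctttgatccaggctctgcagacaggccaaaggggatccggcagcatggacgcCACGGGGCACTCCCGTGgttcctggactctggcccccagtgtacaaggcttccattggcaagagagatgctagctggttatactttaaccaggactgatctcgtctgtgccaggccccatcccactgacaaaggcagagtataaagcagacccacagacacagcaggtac
Mlxipl: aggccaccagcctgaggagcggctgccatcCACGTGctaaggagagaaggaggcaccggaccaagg
Khk: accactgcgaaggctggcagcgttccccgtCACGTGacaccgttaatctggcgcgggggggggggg
A match of letters is a description of the window and not evidence of binding.

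Levels are given below as relative signals, the processed signal divided by the 75th percentile of its array, and differences on the log2 scale. These cannot be compared between probes. Probe coordinates are those of the array files (mm8). The arrays had 18585 to 21118 of 41174 probes well above background. The fewest were on the AIM-/- chow array, and the next array had 19218. The part of this in the results below was not tested. Cd5l had relative signals of 0.320 to 0.608 on the AIM-/- arrays and 41.5 to 108 on the AIM+/+ arrays. All AIM-/- arrays shared 1 slide and all AIM+/+ arrays another, so genotype and slide cannot be told apart. Chow was measured at 0 weeks only, so diet, age and time passed cannot be told apart. Both 20-week arrays carried Xist (relative signal 2.69 in AIM-/- and 2.83 in AIM+/+) and no Y-linked signal above background. The other 6 arrays carried the Y-linked Ddx3y and Eif2s3y, and 2 of them also carried weaker Xist signal above background, at 0.546 in AIM-/- at 6 weeks and 0.236 in AIM+/+ at 12 weeks. Hepatocyte markers had a summed relative signal over 6 markers of 1645 to 1945 on AIM-/- arrays and 1676 to 2159 on AIM+/+ arrays. Alb, at 1129 to 1542, made up most of each sum. Cps1 was lower on diet, at 38.7 to 99.4 against 186 in AIM-/- and 146 in AIM+/+ on chow. Alb, Ttr, Apob, Asgr1 and Hnf4a overlapped between diet and chow arrays. On chow, Hnf4a measured 15.3 in AIM-/- and 9.41 in AIM+/+. Of 4 pancreatic markers 3 were above background on no array, and Cela1 was on 3, reaching 0.595 in AIM-/- and 0.325 in AIM+/+ at 12 weeks. Of 3 kidney markers, Umod and Kap were above background on no array and Slc12a1 on 1. Of 3 muscle markers, Myh1 was above background on none and Ckm and Acta1 on 1 each, Ckm reaching 0.830 in AIM-/- at 6 weeks. The part of these genes in the results was not tested. In whole liver, fewer cells of a type and less RNA per cell cannot be told apart.

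**Figure D1:**
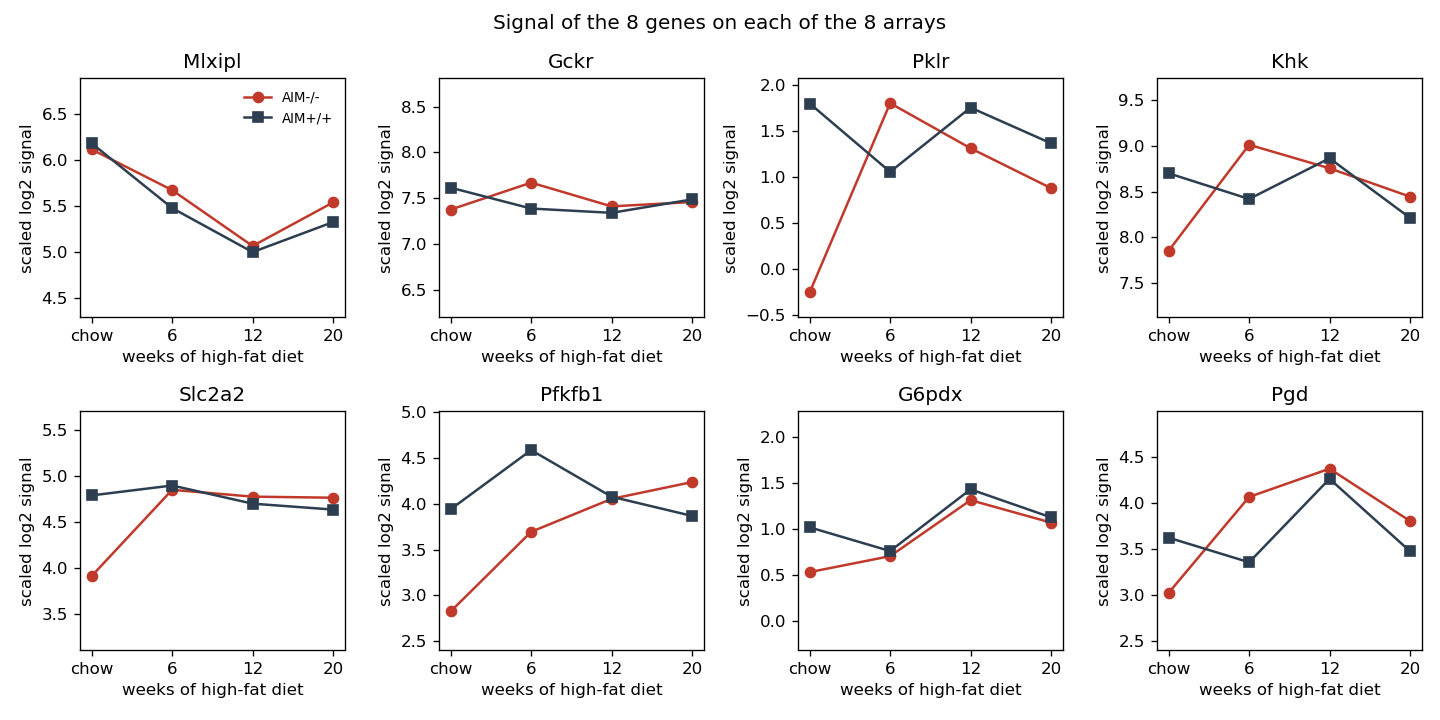
Scaled log2 signal (y axis) of the 8 genes on chow and at 6, 12 and 20 weeks of high-fat diet (x axis), 1 array per point, AIM-/- in red and AIM+/+ in dark blue. Every panel spans the same height on the log2 scale. Mlxipl is highest on both chow arrays, and the AIM-/- chow array is the lowest point for 6 of the 8 genes.

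Mlxipl, the sensor, was the member that changed with diet. In AIM-/- livers its relative signal was 69.3 on chow and 50.9, 33.4 and 46.4 at 6, 12 and 20 weeks. In AIM+/+ livers it was 72.5 on chow and 44.5, 31.9 and 40.0 at those weeks. Both chow arrays were the highest of the 8, both 12-week arrays were the lowest, and the diet and chow arrays did not overlap. The scaled log2 signal averaged 5.34 ± 0.27 on the 6 diet arrays and 6.15 ± 0.05 on the 2 chow arrays (SD). Mlxipl thus fell by 0.80 on diet (log2, SE 0.11, 1.75-fold, 95% interval -1.09 to -0.51), which passed limma's test with an adjusted p of 0.0481.

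That call stood close to the threshold of 0.05. It was lost when any 1 array was left out (-0.92 to -0.65, limma adjusted p from 0.0504 to 0.204, weeks left out included), under quantile normalization, without a filter on dim probes and with the mean of both probes, while the value stayed negative in each. The probe (chr5:135422262-135422321) is 1 of 2 for the gene. The other fell in parallel, with a diet difference of -0.74 and a correlation of 0.98 with the first over the 8 arrays. The summed relative signal of 3 periportal hepatocyte markers (Hal, Sds and Cyp2f2) was also lower on diet. It was 252 to 327 on the 6 diet arrays against 484 to 534 on the 2 chow arrays. Hal and Cyp2f2 were lower on every diet array than on either chow array, while Sds overlapped. Sds measured 60.1 on chow and 90.7, 42.0 and 93.8 at 6, 12 and 20 weeks in AIM+/+ livers. In AIM-/- livers it measured 118, 57.5, 56.7 and 89.6 in the same order. The summed signal of 3 pericentral hepatocyte markers (Glul, Cyp2e1 and Oat) was instead higher on diet. It was 354 to 493 on the 6 diet arrays against 335 to 337 on the 2 chow arrays. Glul was higher on every diet array than on either chow array, while Cyp2e1 and Oat overlapped. The part of these markers in the Mlxipl difference was not tested. Which transcript variants of Mlxipl the probes read was not analysed here.

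Across all genes, 358 of 15338 (2.33%) passed for diet, 236 higher and 122 lower, and 21% of all genes did not overlap between diet and chow arrays. Of the 8 members, 1 passed, Mlxipl. The diet coefficient was above 0 for 6 members, with a median of 0.38 over the 8 against -0.02 over all genes. None of these 6 passed. The largest was 0.70 for Pfkfb1 (SE 0.33, limma adjusted p = 0.254). Next were 0.59 for Pklr (SE 0.52, limma adjusted p = 0.511) and 0.57 for Pgd (SE 0.26, limma adjusted p = 0.253). Without the AIM-/- chow array these coefficients were 0.24, -0.41 and 0.08, in that order.

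**Figure D2:**
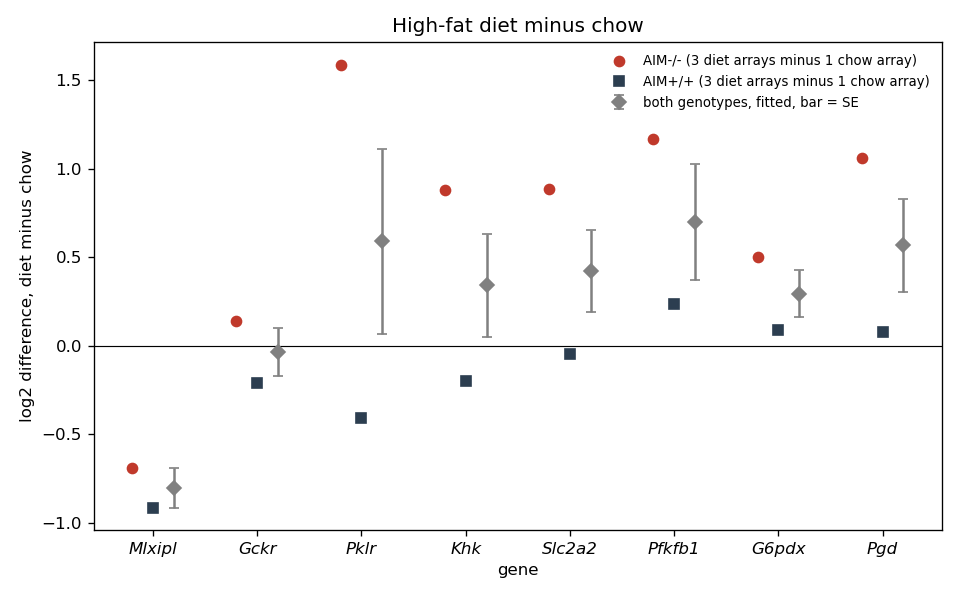
Log2 difference between high-fat diet and chow (y axis) for the 8 genes (x axis). Red circles are AIM-/- and dark blue squares AIM+/+, each the mean of 3 diet arrays minus 1 chow array, and grey diamonds are the fitted value over both genotypes with its SE. Mlxipl lies below 0 in both genotypes, while Gckr, Pklr, Khk and Slc2a2 lie above 0 in AIM-/- and below 0 in AIM+/+.

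For the enzymes and the transporter, the chow livers of the 2 genotypes lay apart. Pklr had a relative signal of 0.839 in the AIM-/- chow liver, against 3.49 in the AIM+/+ chow liver, which is 4.16-fold lower. On diet, Pklr measured 3.50, 2.49 and 1.84 in AIM-/- livers at 6, 12 and 20 weeks, and 2.08, 3.38 and 2.58 in AIM+/+ livers. The low AIM-/- chow array was thus alone, and the genotypes crossed over on diet, AIM-/- being higher at 6 weeks by 0.75 (log2) and lower at 12 and 20 weeks by 0.44 and 0.49.

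Khk, the first enzyme of fructose breakdown, showed the same chow array at the bottom. Its relative signal was 232 in the AIM-/- chow liver and 416 in the AIM+/+ chow liver, 1.79-fold lower. On diet it ran from 349 to 516 in AIM-/- livers and from 297 to 466 in AIM+/+ livers, which overlap. Its other probe gave a like chow difference, -0.93 against -0.84 on the log2 scale.

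Slc2a2, the glucose and fructose transporter of the hepatocyte surface, varied little apart from that array by its brighter probe. It measured 15.0 in the AIM-/- chow liver and 27.6 in the AIM+/+ chow liver (1.84-fold lower). The other AIM-/- arrays lay between 27.1 and 28.8, and the other AIM+/+ arrays between 24.8 and 29.8. Its weaker probe was 1.73-fold lower in AIM-/- on chow, and its correlation with the brighter probe was 0.85. The weaker probe varied more, from 1.94 to 2.61 on the other AIM-/- arrays. At 6 weeks it measured 2.61 in AIM-/- and 1.94 in AIM+/+.

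Pfkfb1 encodes the liver form of the enzyme that makes and breaks down fructose-2,6-bisphosphate, the activator of phosphofructokinase. It had relative signals of 7.10 on chow and 12.9, 16.6 and 18.8 at 6, 12 and 20 weeks in AIM-/- livers. In AIM+/+ livers it had 15.4, 24.0, 16.9 and 14.6 in the same order. The AIM-/- values were thus 2.16-fold lower on chow, still lower at 6 weeks by 0.89 (log2), within 0.02 at 12 weeks and higher by 0.37 at 20 weeks. Pfkfb1 and G6pdx lie on the X chromosome, and the 20-week arrays differ from the rest in their sex-linked genes, whose part in these values was not tested.

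G6pdx and Pgd encode the NADPH-producing dehydrogenases of the oxidative pentose phosphate pathway. G6pdx measured 1.45 on chow and 1.63, 2.49 and 2.10 at 6, 12 and 20 weeks in AIM-/- livers, and 2.03, 1.69, 2.70 and 2.19 in AIM+/+ livers. Pgd measured 8.11, 16.7, 20.7 and 14.0 in AIM-/- livers and 12.3, 10.2, 19.2 and 11.1 in AIM+/+ livers, in the same order. Both genes were highest at 12 weeks in both genotypes, the week at which Mlxipl was lowest, and on chow both were lower in AIM-/-, G6pdx by 0.49 and Pgd by 0.60 (log2).

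Gckr was the member that moved least. Its relative signal was 166 on chow and 204, 170 and 176 at 6, 12 and 20 weeks in AIM-/- livers, and 196, 168, 162 and 180 in AIM+/+ livers. The lowest and highest of the 8 arrays differed 1.26-fold, and the fitted diet difference was -0.04 (SE 0.14, 95% interval -0.39 to 0.31). All 3 AIM-/- diet arrays lay above their chow array and all 3 AIM+/+ diet arrays below theirs. This pattern was shared with Pklr (2 of 8 members) and found in 3.46% of all genes. It rests on 1 chow array per genotype, and some of the differences from chow were near 0. At 12 weeks Gckr differed from chow by 0.03 (log2) in AIM-/- and Pklr by -0.04 in AIM+/+.

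On chow, all 8 members were lower in AIM-/-, with a median difference of -0.72 (log2) against 0.01 over all genes, while 48.3% of all genes were lower there by any amount. Pklr and Pfkfb1, 2 of 8, were at least 2-fold lower, against 4.34% of all genes. For 6 of 8 members the AIM-/- chow array was the lowest of all arrays, which held for 16% of all genes. The exceptions were Mlxipl and Gckr, both lowest on the AIM+/+ array at 12 weeks. On diet, no member was 2-fold apart at 6, 12 or 20 weeks, against 6.57%, 4.56% and 4.16% of all genes. Each is a difference between 1 liver array and 1 other and carries no test. On that chow array Plin1, 1 of 3 adipocyte markers, also had a relative signal of 1.27, against 0.038 in the AIM+/+ chow liver, where it was not above background. The adipocyte marker Adipoq was not above background on either, and Fabp4 stood at 4.69 in AIM-/- and 4.71 in AIM+/+. The summed signal of 3 pericentral hepatocyte markers was 335 in AIM-/- and 337 in AIM+/+, with Glul at 45.2 in AIM-/- and 80.8 in AIM+/+, Oat at 98.4 in AIM-/- and 58.5 in AIM+/+, and Cyp2e1 at 192 in AIM-/- and 198 in AIM+/+. The part of these genes in the chow differences was not tested.

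**Figure D3:**
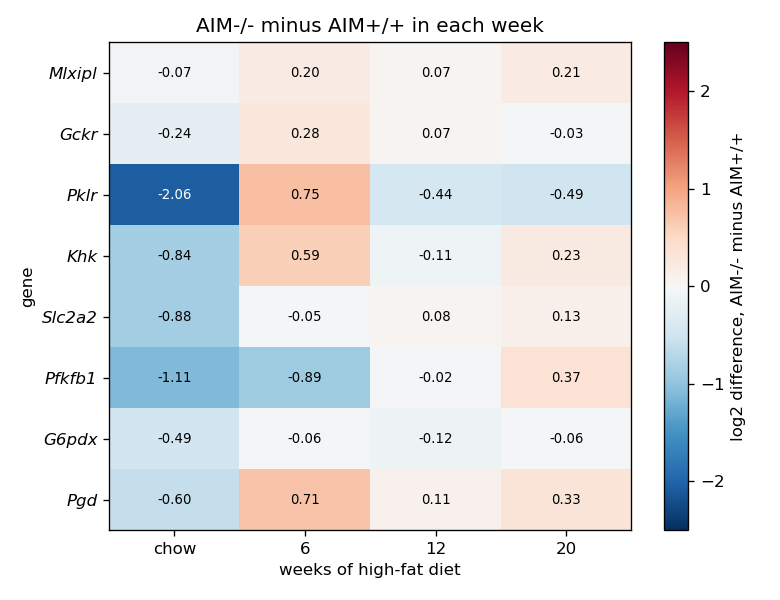
Log2 difference AIM-/- minus AIM+/+ for the 8 genes (rows) on chow and at 6, 12 and 20 weeks of high-fat diet (columns), 1 array against 1 in each cell. Red is higher and blue is lower in AIM-/-. All 8 cells of the chow column are below 0, from -2.06 for Pklr to -0.07 for Mlxipl.

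Over all weeks, none of the 8 members passed limma's test between genotypes, where 5 genes of 15338 (0.0326%) passed. The coefficients ran from -0.56 for Pklr (SE 0.45, 95% interval -1.72 to 0.60, adjusted p = 0.9996) to 0.14 for Pgd (SE 0.23, 95% interval -0.45 to 0.72). Mlxipl differed by 0.10 (SE 0.10, 95% interval -0.15 to 0.35). Without the chow pair, the Pklr coefficient was -0.06 and that of Slc2a2 was 0.05 against -0.18 with it.

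Whether the response to diet differed between the genotypes was tested as an interaction, and 0 of 8 members and 0% of all genes passed by limma, with 680 genes at an unadjusted p under 0.05. The interaction coefficient was above 0 for all 8 members, with a median of 0.93 against -0.02 over all genes. It was largest for Pklr, at 1.996 (log2, SE 0.591, limma adjusted p = 0.912, 0.0152 before adjustment), whose diet change was 1.59 in AIM-/- and -0.41 in AIM+/+. Slc2a2 had an interaction of 0.93 (SE 0.25, limma adjusted p = 0.845, 0.0109 before adjustment), from changes of 0.89 in AIM-/- and -0.05 in AIM+/+. Mlxipl had an interaction of 0.22 (SE 0.44), its change being -0.69 in AIM-/- and -0.92 in AIM+/+. All of these coefficients rest on 1 chow array per genotype, and without the AIM-/- chow array the diet coefficients of Pklr, Khk and Slc2a2 were -0.41, -0.20 and -0.05, below 0, against 0.59, 0.34 and 0.42 with it.

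Between 20 and 6 weeks of diet 0 of 8 members passed, against 0.117% of all genes (18 of 15338). Both 6-week arrays carried Y-linked signal and both 20-week arrays did not. Weeks of diet and this sex-linked difference cannot be told apart in this comparison. The X-linked G6pdx had the smallest unadjusted p, with a coefficient of 0.37 (SE 0.16, limma adjusted p = 0.358). Mlxipl had a coefficient of -0.14 between these weeks (SE 0.14, 95% interval -0.50 to 0.21).

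Among other glycolysis enzymes, 25 of 26 listed were measured, and 2 passed for diet, both higher, against 2.33% of all genes. Ldha, the lactate dehydrogenase subunit, rose by 0.86 (log2, SE 0.12, limma adjusted p = 0.0467), with relative signals of 242, 202 and 231 at 6, 12 and 20 weeks against 133 on chow in AIM-/-, and of 251, 204 and 200 against 111 on chow in AIM+/+. Pfkfb4, a relative of Pfkfb1, rose by 0.94 (SE 0.14, limma adjusted p = 0.0497), with relative signals of 0.670 to 1.503 on the 6 diet arrays against 0.495 and 0.554 on the 2 chow arrays. The Ldha call ended when any 1 array was left out, and so did that of Pfkfb4, which held without the 6-week pair. Both calls also ended under median centring and without a filter on dim probes, and that of Pfkfb4 under quantile normalization and with the mean of probes. Hk2, a hexokinase scarce in normal liver, had a coefficient of 1.71 (limma adjusted p = 0.0508). The diet coefficient was above 0 for 20 of the 25 and below 0 for 5, with a median of 0.28 against -0.02 over all genes. On chow this list did not share the members' direction: 16 of the 25 were higher in AIM-/- and 9 lower, with a median of 0.13. None was at least 2-fold lower, and 5 had their lowest value on the AIM-/- chow array. Of all genes, 48.3% were lower, 4.34% at least 2-fold lower and 16% lowest on that array.

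The list of ChREBP partners and targets had 15 of 15 genes measured and 0 past the threshold in any of the 4 contrasts. On chow, 12 of the 15 were lower in AIM-/- and 7 were at least 2-fold lower, with a median of -0.82, and 10 had their lowest value on the AIM-/- chow array. Over all genes the shares were 48.3% lower, 4.34% at least 2-fold lower and 16% lowest on that array. G6pc, the glucose-6-phosphatase that releases glucose, measured 3.17 in the AIM-/- chow liver and 120 in the AIM+/+ chow liver, 37.9-fold lower. The malic enzyme Me1 measured 7.59 in AIM-/- and 26.3 in AIM+/+, and the fatty acid synthase Fasn 173 in AIM-/- and 509 in AIM+/+. Tkfc, which phosphorylates the glyceraldehyde that Khk and aldolase B yield from fructose, measured 19.2 in AIM-/- and 56.1 in AIM+/+. These were the 4 largest, and the partner Mlx, at 3.71 in AIM-/- and 3.44 in AIM+/+, was among the 3 that were not lower.

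**Figure D4:**
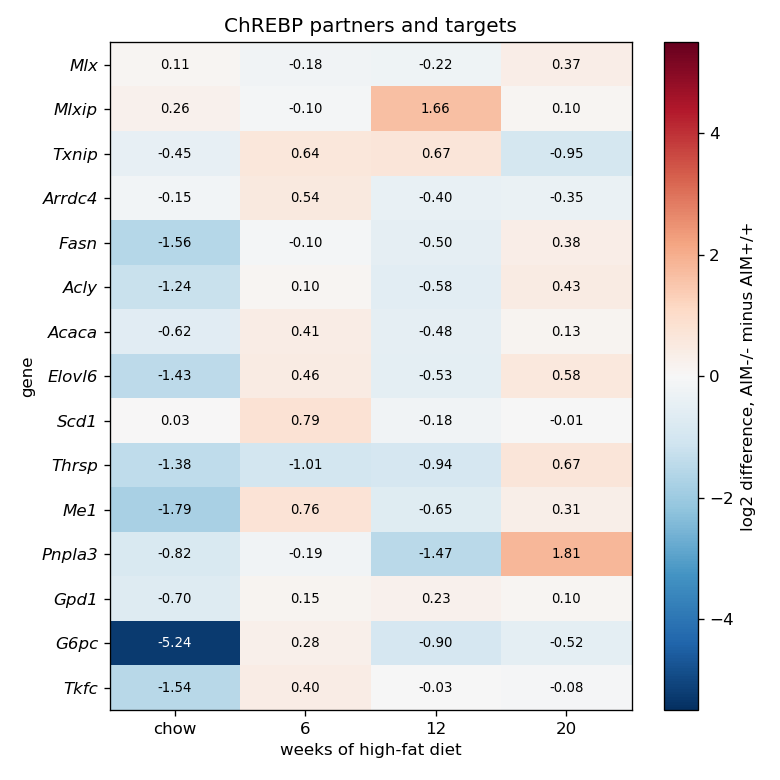
Log2 difference AIM-/- minus AIM+/+ for the 15 ChREBP partners and targets (rows) on chow and at 6, 12 and 20 weeks of high-fat diet (columns), 1 array against 1 in each cell. Red is higher and blue is lower in AIM-/-. The chow column holds 12 values below 0, and the column of 12 weeks also holds 12, with a smaller median of -0.48.

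At 6 and 20 weeks 10 of the 15 partners and targets were higher in AIM-/-, with medians of 0.28 and 0.13. At 12 weeks 12 of the 15 were lower, with a median of -0.48. Against chow, all 15 diet coefficients over both genotypes were above 0, with a median of 0.55. They rest in part on the low AIM-/- chow array: in AIM-/- the diet change was above 0 for 15 of 15, with a median of 1.10, and in AIM+/+ for 11 of 15, with a median of 0.15. The 4 below 0 in AIM+/+ were G6pc (-1.20), Tkfc (-0.42), Acly (-0.31) and Me1 (-0.18). The largest diet coefficient was that of Pnpla3, at 2.99 (SE 0.64, limma adjusted p = 0.0776). Its change was 3.43 in AIM-/- and 2.56 in AIM+/+, and it was well above background on 6 arrays. G6pc had a diet coefficient of 1.23 (SE 1.11, limma adjusted p = 0.519). Thrsp, a lipogenic gene, had 1.08 (SE 0.42, limma adjusted p = 0.195). Elovl6, a fatty acid elongase, had 0.95 (SE 0.43, limma adjusted p = 0.242). In the interaction 14 of 15 were above 0, with a median of 0.87, the largest being G6pc at 4.86 (SE 0.995, limma adjusted p = 0.587).

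In the other lists, 0 genes passed in any of the 4 contrasts. Of 6 further pentose phosphate genes, 5 were lower in AIM-/- on chow, none of them 2-fold, and 4 were lowest on that array, against 48.3% and 16% of all genes, among them the transketolase Tkt at 53.9 in AIM-/- and 82.2 in AIM+/+. Of 8 genes of fructose, polyol and hexose handling, 4 were lower and 4 higher on chow, and Tkfc was the member at least 2-fold apart. Of 5 NADPH sources outside the pentose phosphate pathway, Me1 was at least 2-fold lower. Of 8 measured upstream regulators 1 was, the insulin receptor substrate Irs1, at 3.30 in AIM-/- and 7.56 in AIM+/+. Of all genes, 4.34% were at least 2-fold lower on chow. Tkfc and Me1 also stand in the list of ChREBP partners and targets and were counted there.

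Pklr lies on chromosome 3, its probe (chr3:89230912-89231430) being 1.77 Mb from that of the targeted gene Cd5l. Slc2a2 is on the same chromosome, 58.5 Mb away. Whether the region around Cd5l differs in strain origin between the genotypes was not tested. Among 11679 other genes with a symbol, the pattern most like that of Pklr over the 8 arrays belonged to Pomk (Pearson r 0.96), Hcn3 (0.96), Vrk2 (0.96), Tmem17 (0.95) and Lrfn3 (0.94). The log2 values of these genes spanned 0.75, 1.68, 0.37, 0.64 and 2.61 over the 8 arrays, in that order, against 2.06 for Pklr. The median span over all genes was 0.81. The Hcn3 probe lies 1.31 kb from the Pklr probe. Hcn3 measured 0.399, 1.28, 1.16 and 0.665 on chow and at 6, 12 and 20 weeks in AIM-/- livers, and 1.17, 0.899, 1.17 and 0.850 in AIM+/+ livers.

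Among the genes most like Mlxipl were Alkbh7 (Pearson r 0.99 over the 8 arrays), Adgrl2 (0.99), Zfp68 (0.98) and Kdm5b (0.98). Their log2 values spanned 0.85, 0.78, 0.64 and 1.06, in that order, against 1.18 for Mlxipl. The 8 arrays share 4 times and 2 slides, so these correlations describe likeness over few and related points.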

How the data were processed

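Total liver RNA was measured on 8 Agilent 1-colour arrays (design 014868), 1 per genotype and time. The authors took the processed signal intensity, with background subtracted, from Agilent Feature Extraction, whose version is 9.5 in the submitters' processing notes and 9.5.3.1 per the file headers. The deposited value table holds log2 values, which matched the log2 processed signal minus the array's 75th percentile (median absolute difference at most 0.0021), and its columns have medians of -3.60 to -3.42. The aligner of probes to mm8 is not given in the sources used here.

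Control spots (1639) and outlier spots (75 to 130 per array) were left out. From the intensity, log2 values were scaled by each array's 75th percentile, and 21385 probes well above background on at least 2 arrays were kept. The brightest probe stood for a gene, which left 15338 genes. Names came through a RefSeq table of GRCm38.p6 (24375 of 41174 probes matched). Tests used limma 3.58.1 (R 4.3.3, with data.table, version 1.17.8 of that package), with week as a factor of 4 levels and genotype, which left 3 residual degrees of freedom. The interaction came from a model of 4 cells with 4 residual degrees of freedom, and its lone chow arrays are assumed to vary like the others. No group has a replicate, so the error behind each p-value is the spread of these arrays and not that of animals. Adjusted p is Benjamini-Hochberg over all genes, with a threshold of 0.05. A difference at 1 time has no test. A gene at least 2-fold apart, with at least 1 of the 2 signals above background, was counted.

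The members, gene lists and tests were chosen with earlier results of these data known. All 8 members are named, and of the other lists those that passed, with up to 4 of the largest coefficients or chow differences and further ones as illustrations chosen after their values were seen. Pnpla3, well above background on 6 arrays, is described for diet only, and Hkdc1, well above background on 3, is not described. Results of 2 other genes that the rule would name are not reported here. The fits were tried on simulated data with 200 changed genes of 15338. They recovered 51% of 2-fold changes for genotype, 35% for diet, 16% for 20 minus 6 weeks and 2% for the interaction. Of 8-fold changes they recovered 93%, 91%, 83% and 57%, in the same order. The simulation held no differences between weeks beyond the changes put in. In these data such differences enter the error of the interaction, so its recovery may be overstated. Alternatives were normexp background correction (offset 50), quantile normalization, median centring, the deposited log2 table, other filters, the mean of probes, and leaving out each array or pair. The number of arrays limits the precision.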

Additional observations from a re-analysis of the deposited data

Results flagged for a closer look

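Slc2a2 on the AIM-/- chow array stood far from the other AIM-/- arrays by its brighter probe. Its scaled log2 signal there was 3.91, and the nearest of the other 3 was 4.76, a gap of 0.91 of the range of the 4 arrays, above Dixon's 95% critical value. It was the 1 flag among 24 groups of 4 or more arrays examined, and chance flags about 1 in 20 groups of replicates. The AIM-/- arrays are not replicates, being 1 on chow and 3 at different weeks of diet. An outlying array and a difference between chow and diet cannot be told apart by this flag. The flag rests on that probe. The weaker Slc2a2 probe had a scaled log2 signal of 0.33 there and 0.95 to 1.39 on the other 3 AIM-/- arrays.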

How the results depend on the processing

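No result that passed a test changed direction. Of 66 values of single genes, 5 changed sign with normexp and 5 with quantile normalization, none of them past a threshold. Genes past the threshold for genotype numbered 5, against 3 with probes above background on all 8 arrays and 1 when any array or week was left out. For diet 358 became 693 with normexp, 233 with quantile normalization, 27 without a filter, 905 with probes above background on all 8 arrays, and 0 to 522 when an array or week was left out (0 without either chow array). For 20 minus 6 weeks 18 became 86 with normexp, 8 without a filter, 36 with all 8 arrays above background, 38 with the mean of probes, and 0 to 11 when an array or week was left out. For the interaction 0 became 111 without a filter and 0 to 3 when an array or week was left out. The diet difference of Mlxipl had a limma adjusted p of 0.0527 under quantile normalization, 0.101 without a filter and 0.0535 with the mean of probes. It was 0.0231 with normexp, 0.0447 with median centring, 0.0481 with the deposited table and 0.0212 with all 8 arrays above background. The causes were not tested. Median centring moved the median of all genes to -0.14 for the interaction and -0.11 for 20 minus 6 weeks, against -0.02 and -0.04. The chow difference of Pklr was -1.78 with normexp and -2.07 with quantile normalization, and that of Pfkfb1 was -1.10 and -1.14. Slide could not be fitted as a block, since each slide holds 1 genotype. With week as a factor, the genotype test already sets each AIM-/- array against the AIM+/+ array of its week, so leaving out 1 of them gives the value without the pair, as for Pklr (-0.06).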
